A study of Mus musculus with 12 samples.

Results

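The genes described here are Smyd1, Smyd2, Smyd3, Smyd4 and Smyd5, which make up the SMYD family of lysine methyltransferases, and Naca, whose long muscle form binds SMYD1. They were picked out by gene symbol, and each of the 6 symbols was found in all 12 expression files, out of 23923 genes. All 6 were among the 12695 genes that reached 0.1 FPKM in 6 or more libraries and were tested. FPKM is the number of sequenced fragments scaled to transcript length and to the size of the library. Levels of different genes can thus be set side by side per length, apart from reads lost because they mapped to several places. Such reads were discarded before the values were made.

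RNA was sequenced from the tibialis anterior, a fast-twitch muscle of the lower leg, of 12 mice aged 6 weeks on a mixed C57BL6/J;129S1/SvImJ background. The 6 controls were Myf6 cre/+; Smyd1 flox/+ and the 6 Smyd1 conditional knockouts (CKO) were Myf6 cre/+; Smyd1 flox/-, with 1 library per mouse. Every mouse therefore carried Cre at the Myf6 locus, which is active in muscle fibers, and every mouse had 1 floxed Smyd1 allele. By the study's methods all also carried a Rosa26 YFP/+ reporter, and the null allele was the floxed allele deleted earlier in the germline. The paper states that, after its histology of both sexes, its remaining experiments used male tissue only. The groups differed in the other allele, which was wild-type in controls and null in CKOs, so a control mouse could also lose 1 Smyd1 copy in its fibers. The libraries hold RNA of the whole muscle, in which fewer cells of a type and less RNA per cell cannot be told apart.

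SMYD proteins carry a SET domain, which transfers methyl groups to lysines, split by a MYND zinc finger, which binds partner proteins. SMYD1 is largely restricted to heart and skeletal muscle, and in zebrafish it is needed for sarcomere assembly. SMYD2 methylates proteins such as p53, RB1 and HSP90, the last of these in the muscle cytoplasm together with titin. NACA is the alpha subunit of the nascent polypeptide-associated complex, which meets new proteins as they leave the ribosome, and its long isoform skNAC is made in striated muscle.

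In GENCODE release M21 on GRCm38, Smyd1 lies at chr6:71213940-71322233 on the minus strand and has 6 annotated transcripts, all of them protein-coding. Its transcripts of 490 and 477 codons differ by exon 5 of 10, at chr6:71235343-71235381, which is 39 bases or 13 codons long. It is shown because the deposited value adds up the forms with and without it, which cannot be separated here.

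Smyd1 exon 5, minus strand: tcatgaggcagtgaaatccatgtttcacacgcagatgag

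The promoter windows of Smyd1 and Smyd2 are shown because these were the only members listed above 20 FPKM in every control, and because the ratio between them separated the groups. Each window holds 300 bases of RefSeq sequence on GRCm38.p6 around the start that RefSeq gives for the gene, most of it before that start and the rest just after. For Smyd1 this start lies inside the GENCODE gene, some of whose transcripts begin farther upstream, near position 71322233. Capitals mark CG pairs and any TATAAA, which reads TTTATA on the other strand.

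Smyd1, chr6:71262232-71262531, minus strand: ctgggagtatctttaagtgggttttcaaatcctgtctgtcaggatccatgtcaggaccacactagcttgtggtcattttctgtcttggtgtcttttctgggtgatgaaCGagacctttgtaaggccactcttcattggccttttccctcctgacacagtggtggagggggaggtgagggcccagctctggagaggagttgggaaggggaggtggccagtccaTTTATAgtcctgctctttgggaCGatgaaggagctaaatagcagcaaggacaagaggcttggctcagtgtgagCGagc

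Smyd2, chr1:189922242-189922541, minus strand: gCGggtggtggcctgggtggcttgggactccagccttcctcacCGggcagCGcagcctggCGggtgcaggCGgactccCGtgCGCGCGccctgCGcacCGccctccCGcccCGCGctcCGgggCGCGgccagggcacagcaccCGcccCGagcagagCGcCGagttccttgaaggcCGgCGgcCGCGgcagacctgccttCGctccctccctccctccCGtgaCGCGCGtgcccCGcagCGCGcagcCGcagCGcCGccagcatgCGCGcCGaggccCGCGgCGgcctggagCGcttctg

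The Smyd2 window had 43 CG pairs and a GC content of 79%, against 3 CG pairs and 52% in the Smyd1 window. Over all 32851 RefSeq promoters of this length, the median was 7 CG pairs and 52.7% GC. TATAAA, read on both strands, was present 1 time in the Smyd1 window and absent from the Smyd2 window, and 13.6% of all promoters held it. GGGCGG, also read on both strands, was present 3 times in the Smyd2 window and absent from the Smyd1 window, and 35.7% of all promoters held it. Neither window held CANNTG, the E-box letters, which were present in 72.3% of promoters, and neither held a CArG box (1.63% of promoters) or a MEF2 site (3.19%). The windows of Smyd4, Smyd5 and Naca held 34, 13 and 15 CG pairs. These matches describe the letters of a window and not the binding of a factor. Smyd3 had no entry.

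Depth in reads is unknown because the values are FPKM. Relative depth, inferred from the spacing of the smallest values, differed by up to 1.78-fold between libraries. The median log2 fold change of all tested genes was 0.18 as deposited, so most genes sat slightly higher in the libraries labelled CKO. After median-ratio scaling, which divides each library by its median ratio to a common reference over 6354 genes above 1 FPKM in every library, the median was 0.04. Each member is therefore given on both scales.

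Smyd2 RNA fell to less than the level of any control in all 6 CKOs, while Smyd1, the targeted gene, did not pass the test. Smyd3, Smyd4, Smyd5 and Naca did not pass it either. In the limma test on FPKM as deposited with adjustment over all genes, 1 of the 6 members was lower at an adjusted P below 0.05 and none was higher, against 0.268% of all tested genes lower and 2.02% higher. In either direction 2.29% of all genes passed. At an unadjusted P below 0.05 the count was again 1 lower (1.76% of all genes) and 0 higher (18.1%). After scaling 1 of 6 was lower, against 0.551% of all genes, and none was higher, against 0.851% (1.4% in either direction). With no adjustment 2 were then lower (5.88% of all genes) and 0 higher (8.33%).

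Smyd1, the gene targeted in this design, was listed at 47.1, 33.4, 41.1, 33.0, 33.8 and 36.1 FPKM in controls 1 to 6. It was listed at 38.0, 32.1, 32.6, 27.8, 39.9 and 34.5 FPKM in CKOs 1 to 6. The groups overlapped, with control 1 highest and CKO 4 lowest of all 12 libraries. The means were 37.4 ± 5.64 FPKM in controls and 34.1 ± 4.37 in CKOs (SD, n = 6 each). The log2 fold change was -0.13 with a standard error of 0.12 and a 95% interval from -0.37 to 0.12, which is 0.915-fold with an interval from 0.772 to 1.08, and the limma adjusted P was 0.545. The difference in whole-gene RNA was smaller than the spread between mice.

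The gene-level FPKM adds up fragments from all exons. Which exons are flanked by the lox sites is not given in the sources used here, and RNA of exons outside the deletion would still be counted. The value therefore does not check the labels, and it does not measure SMYD1 protein. In the paper, western blots of the tibialis anterior found no detectable SMYD1 in CKO mice. The span of the Smyd1 gene also holds Krcc1, a gene on the opposite strand, at positions 71271677 to 71285319. The Smyd1 transcripts of 490 and 477 codons reach no farther than position 71262281 and so lie outside Krcc1. Of the annotated Smyd1 transcripts, only the form of 456 codons spans it. Whether exons of that form meet exons of Krcc1 was not tested. Only fragments from shared exons could be confused, where counting ignores strand. Krcc1 was at 7.49 ± 2.97 FPKM in controls and 8.07 ± 0.666 in CKOs (SD, n = 6), and the groups overlapped.

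After median-ratio scaling, Smyd1 ranged from 35.7 to 42.3 with a median of 39.4 in controls. It ranged from 27.2 to 36.4 with a median of 32.2 in CKOs. Of the 6 CKOs, 5 now lay below every control and 1 lay within their range. The scaled means were 39.0 ± 2.40 and 32.2 ± 3.08 (SD, n = 6). The log2 fold change on this scale was -0.28 (95% interval -0.45 to -0.11), or 0.823-fold. The limma adjusted P was 0.1096, and the two-sided exact permutation test of this single gene gave P = 0.00433. Relative to the median of all genes Smyd1 was on the low side on either scale, with the adjusted test not passed on either. With Gapdh scaling, which divides each library by its own Gapdh value, the log2 fold change turned to 0.01. The median of all genes was then 0.305, so Smyd1 was still below it.

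Smyd2 encodes a family member that methylates cytoplasmic as well as nuclear proteins, and it was the most abundant member in controls. It was listed at 53.8, 53.9, 73.7, 68.1, 63.3 and 60.1 FPKM in controls 1 to 6 and at 22.1, 19.6, 25.4, 22.7, 35.1 and 19.9 FPKM in CKOs 1 to 6. The groups did not overlap, and CKO 5 was the CKO nearest to the controls. Of all tested genes, 0.189% had all 6 CKOs below all 6 controls and 2.23% had all 6 above, which became 0.607% and 0.993% after scaling.

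The Smyd2 means were 62.1 ± 7.90 FPKM in controls and 24.1 ± 5.77 in CKOs (SD, n = 6). The log2 fold change was -1.38 with a standard error of 0.14 and a 95% interval from -1.67 to -1.09, or 2.60-fold lower, with a limma adjusted P of 0.000289. The exact permutation test gave P = 0.00217, the smallest value that 6 against 6 mice allow. After scaling, the log2 fold change was -1.53 (95% interval -1.82 to -1.24), the limma adjusted P was 0.000143, and the groups again did not overlap. Among the 12695 genes, Smyd2 was second by P as deposited and first after scaling. By the size of the decrease as deposited it was 22nd.

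**Figure D1:**
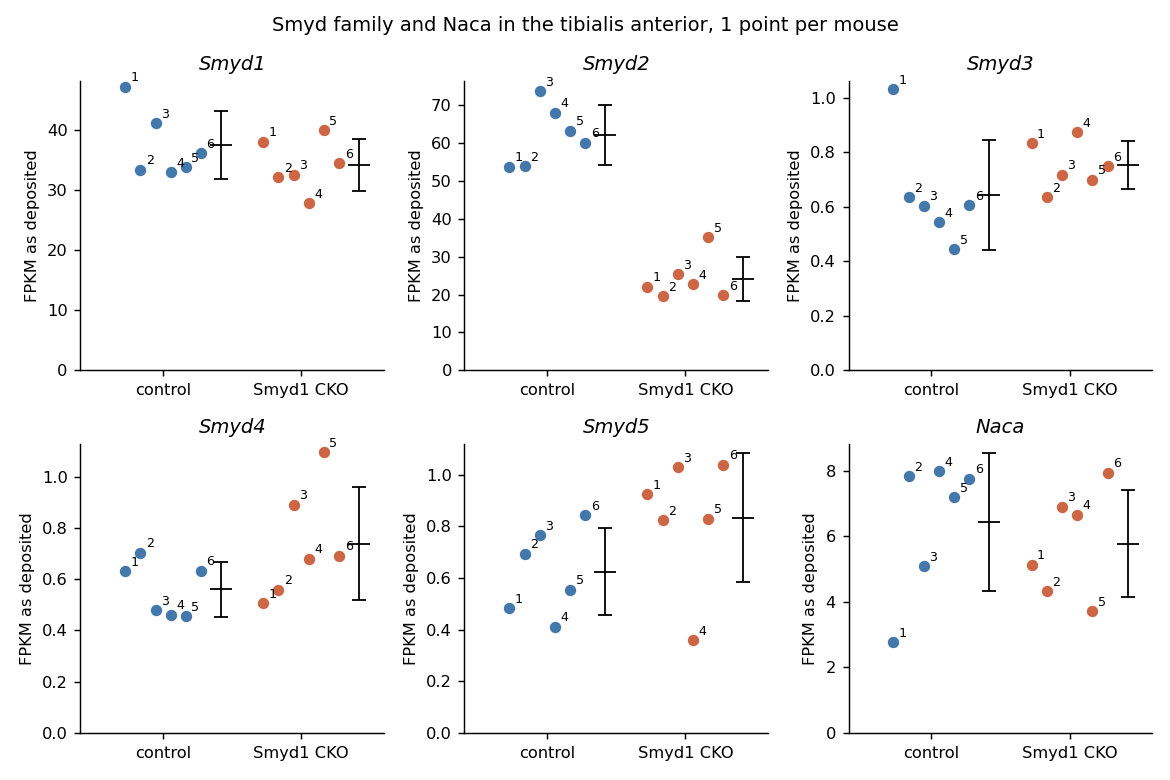
FPKM as deposited (y axes, each starting at 0) of the 6 genes in each mouse, with control mice in blue and Smyd1 CKO mice in orange, the mouse number beside each point, and black bars for the mean ± SD of 6 mice. Smyd2 separates the groups, with controls from 53.8 to 73.7 and CKOs from 19.6 to 35.1, and the other panels overlap.

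Dividing by genes of the same library avoids a size factor altogether. The ratio of Smyd2 to Smyd1 was 1.69 ± 0.314 in controls, with values from 1.14 to 2.07, and 0.708 ± 0.134 in CKOs, with values from 0.577 to 0.879 (SD, n = 6). No CKO reached the lowest control, and Smyd2 moved from the more abundant to the less abundant of the pair in every CKO. The ratio of Smyd2 to Acta1, skeletal muscle actin, was 0.0136 in controls and 0.00659 in CKOs and did not overlap. The ratio of Smyd2 to Gapdh was 21.6 and 9.28 and did not overlap either, although Gapdh was listed at only 2.90 FPKM in controls. How many Gapdh reads were lost because they mapped to several places was not tested. The ratio of Smyd2 to Myf6 was 5.08 and 1.58, with 5 of 6 CKOs below every control.

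The summed FPKM of Smyd1 to Smyd5 was 101.3 ± 8.94 in controls, from 89.3 to 117, and 60.6 ± 9.18 in CKOs, from 52.4 to 77.7 (SD, n = 6). Smyd2 made up 61.3% of this sum in controls and 39.6% in CKOs. Smyd1 made up 36.9% and 56.6%, and the CKO shares lay above those of every control although the level of Smyd1 itself overlapped. Smyd3, Smyd4 and Smyd5 together made up 1.82% and 3.86%. Their own summed level was 1.83 ± 0.322 FPKM in controls and 2.32 ± 0.309 in CKOs, and those ranges overlapped. Of the 15 pairs of members, the ratio separated the groups in 4, and all 4 held Smyd2. The values of Smyd2 alone already did not overlap, so these ratios and the shares above are not separate results. How often ratios of other gene pairs separate the groups was not tested. Naca to Smyd2 was the pair with Smyd2 that overlapped, with 5 of 6 CKOs above every control.

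**Figure D2:**
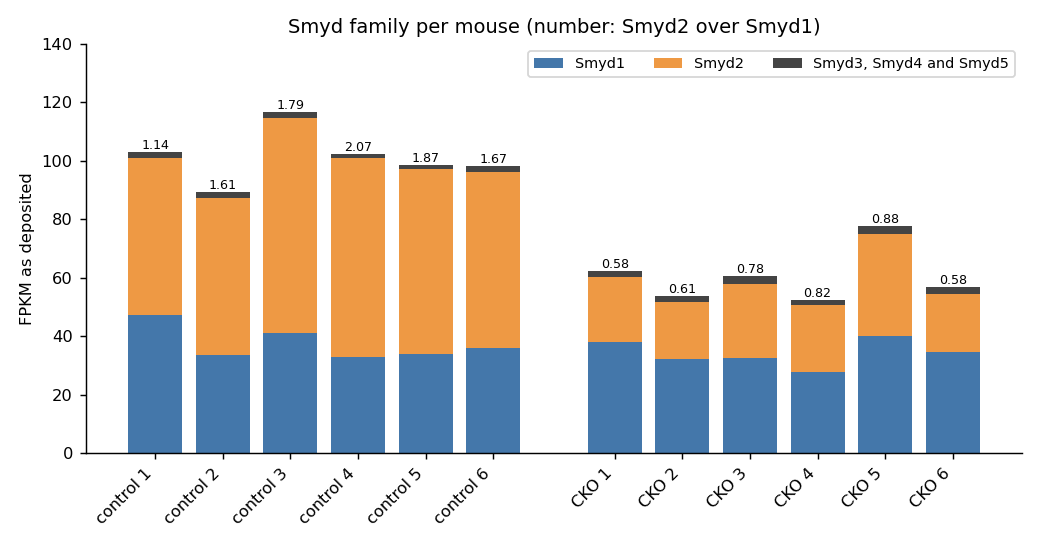
Stacked bars of the FPKM as deposited (y axis from 0) of Smyd1 in blue, Smyd2 in orange and Smyd3 to Smyd5 in dark grey, with 1 bar per mouse and the ratio of Smyd2 to Smyd1 printed above it. The ratio is 1.14 or more in all controls and 0.88 or less in all CKOs, and the height of the Smyd1 segment overlaps between the groups.

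Smyd3, Smyd4 and Smyd5 were present at low levels. In controls Smyd1 and Smyd2 were at 328 and 200 in the order of 12695 gene levels, whereas Smyd3, Smyd5 and Smyd4 were at 8948, 9050 and 9317. The last 3 neighbours in this order did not differ beyond their spread, with control medians of 0.606, 0.624 and 0.555 FPKM and ranges that overlapped. At such levels a gene is covered by few fragments, and the spread was 19.2% to 31.3% of the mean in controls.

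Smyd3, a methyltransferase with histone and cytoplasmic kinase substrates, ranged from 0.445 to 1.03 FPKM with a median of 0.606 in controls, and from 0.637 to 0.875 with a median of 0.735 in CKOs. Its range in CKOs lay inside the range of controls, whose highest value was control 1. The log2 fold change was 0.23 (95% interval -0.15 to 0.60) with a limma adjusted P of 0.476, and 0.10 after scaling with an adjusted P of 0.847.

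Smyd4, the family member with tetratricopeptide repeats, ranged from 0.455 to 0.703 FPKM with a median of 0.555 in controls, and from 0.506 to 1.10 with a median of 0.686 in CKOs. The groups overlapped, and CKO 5 was highest. The log2 fold change was 0.32 (95% interval -0.09 to 0.73) with a limma adjusted P of 0.361, and 0.19 after scaling with an adjusted P of 0.732.

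Smyd5, the most divergent family member, ranged from 0.411 to 0.843 FPKM with a median of 0.624 in controls, and from 0.360 to 1.04 with a median of 0.877 in CKOs. CKO 4 was the lowest of all 12 libraries and CKO 6 the highest, so the groups overlapped. The log2 fold change was 0.34 (95% interval -0.16 to 0.84) with a limma adjusted P of 0.422, and 0.20 after scaling with an adjusted P of 0.766. The intervals of these 3 genes as deposited allow an increase of up to 1.52-fold, 1.65-fold and 1.79-fold. After scaling they allow up to 1.35-fold, 1.51-fold and 1.63-fold.

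Naca was listed at 2.76, 7.83, 5.09, 7.97, 7.20 and 7.76 FPKM in controls 1 to 6, and at 5.13, 4.33, 6.90, 6.66, 3.70 and 7.94 FPKM in CKOs 1 to 6. The groups overlapped throughout, with control 1 lowest of all. The means were 6.43 ± 2.095 and 5.78 ± 1.64 FPKM (SD, n = 6), the log2 fold change was -0.12 (95% interval -0.66 to 0.42) and the limma adjusted P was 0.820. After scaling the log2 fold change was -0.27 (95% interval -0.89 to 0.35) with an adjusted P of 0.745. With Gapdh scaling it turned to 0.02, where the median of all genes was 0.305.

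Naca lies at chr10:128035575-128048637 on the plus strand. Its short transcript is 885 bases long and codes for 215 codons, and the long skNAC form is 6745 bases long and codes for 2187 codons. The long form owes most of that length to an extra exon 3 of 5916 bases at chr10:128039171-128045086. The gene value adds up both forms, so a change of the skNAC share alone was not measured. Reads that mapped to several places had been discarded before the values were made, and how many Naca reads that removed was not tested.

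Btf3, the beta subunit that pairs with NACA in the nascent polypeptide-associated complex, was at 10.9 ± 1.92 FPKM in controls and 10.8 ± 1.83 in CKOs (SD, n = 6), and its log2 fold change was -0.02 with a limma adjusted P of 0.965. Naca to Btf3 was 0.626 in controls and 0.531 in CKOs, with overlap. Of the 4 genes of the complex, 3 were tested, and none passed at an unadjusted or an adjusted P below 0.05. The beta-like gene Btf3l4 had a log2 fold change of 0.19 with an adjusted P of 0.595. Nacad was below the filter.

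**Figure D3:**
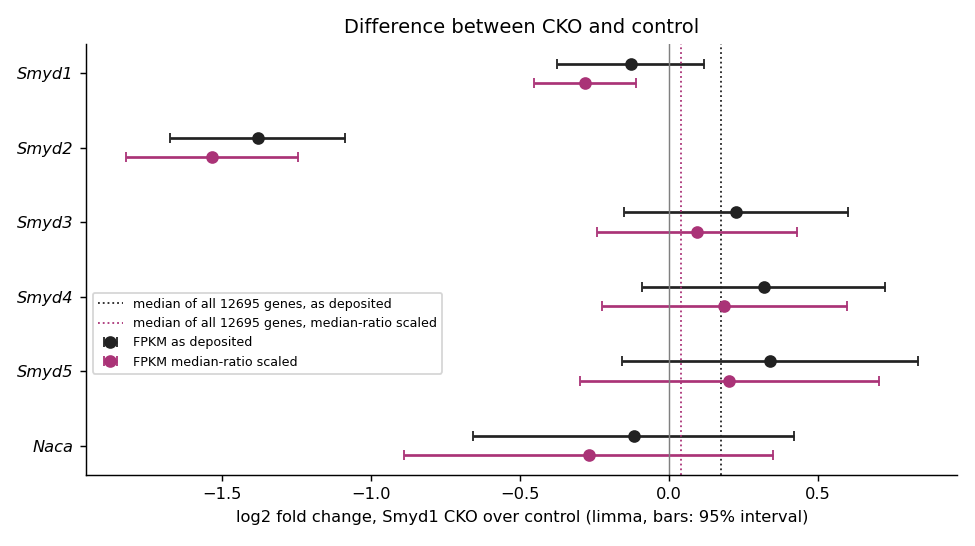
Log2 fold change of CKO over control (x axis) of each gene with its 95% limma interval, for FPKM as deposited in black and after median-ratio scaling in purple, with dotted lines at the median of all 12695 tested genes (0.18 and 0.04). Smyd2 is the only member whose interval lies below -1 on both scales, and the intervals of Smyd3, Smyd4, Smyd5 and Naca include 0.

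**Figure D4:**
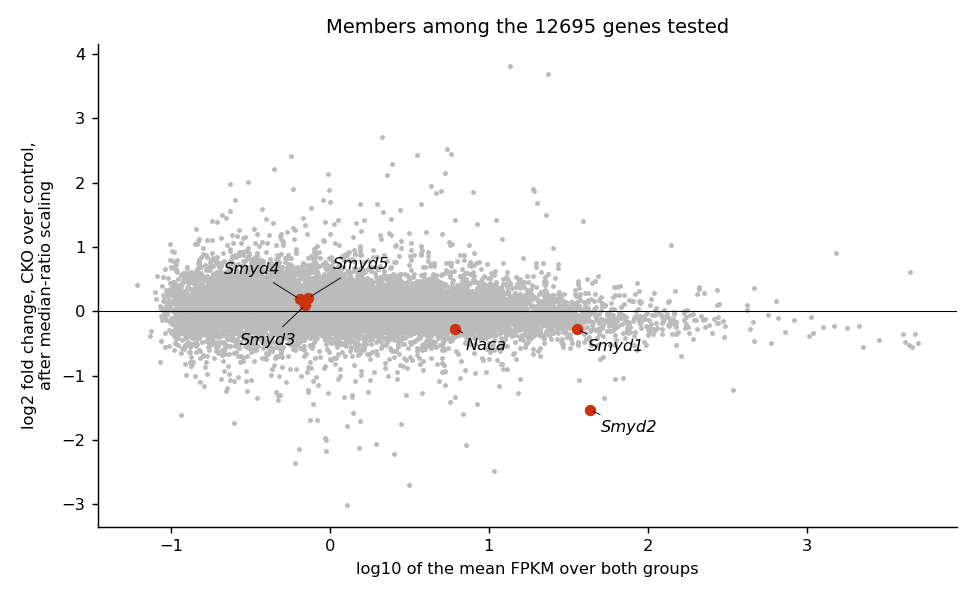
Log2 fold change after median-ratio scaling (y axis) against the log10 mean FPKM over both groups (x axis) for the 12695 tested genes in grey, with the 6 members in red. Smyd2 lies at -1.53 among genes of high level, where few other genes lie as low, and the other 5 members lie within the cloud of genes of their level.

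The lists around the family gave few calls. Of 12 tested genes with a MYND zinc finger outside the family (17 listed), none passed the adjusted limma threshold in either direction, and with no adjustment 1 was higher and 0 lower, where 18.1% of all tested genes were higher and 1.76% lower. After scaling 0 were higher and 2 lower, against 8.33% and 5.88% of all genes. Zmynd8, a reader of acetylated histones, had a log2 fold change of 0.28 with an adjusted P of 0.234. Mss51, a muscle gene with a role in mitochondrial metabolism, had -0.58 with an adjusted P of 0.338, and Egln1, an oxygen-sensing hydroxylase, had -0.22 with an adjusted P of 0.346. The median over the list was 0.08 as deposited and -0.07 after scaling, below the medians of all genes of 0.18 and 0.04.

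Of 30 genes with a SET domain outside the family, none passed the adjusted limma threshold, and with no adjustment 2 were higher and 1 lower, where 18.1% of all genes were higher and 1.76% lower. After scaling 0 were higher and 1 lower, against 8.33% and 5.88%. Ehmt2, a histone H3 lysine 9 methyltransferase, had a log2 fold change of 0.41 with an adjusted P of 0.189. Setd8, the histone H4 lysine 20 monomethyltransferase, had -0.28 with an adjusted P of 0.211, and Setd5 had 0.24. After scaling Setd8 was at -0.43 with an adjusted P of 0.0538. The list median was 0.11 as deposited and -0.03 after scaling.

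Of 16 genes listed as partners or substrates of SMYD proteins, 14 were tested, and 1 was higher and none lower past the adjusted limma threshold, where 2.02% of all genes were higher and 0.268% lower. With no adjustment 3 were higher and 1 lower as deposited (18.1% and 1.76% of all genes), and 2 were higher and 1 lower after scaling (8.33% and 5.88%). That gene was Rb1, the retinoblastoma protein that SMYD2 methylates. Rb1 ranged from 3.46 to 4.14 FPKM in controls and from 3.92 to 7.59 in CKOs, so the groups overlapped. Its log2 fold change was 0.56 with a standard error of 0.13 and an adjusted P of 0.0413, and after scaling it was 0.41 with an adjusted P of 0.167.

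Hdac2, a histone deacetylase, had a log2 fold change of 0.36 with a limma adjusted P of 0.0817, and Hdac3 had -0.22 with an adjusted P of 0.230, which became -0.37 with an adjusted P of 0.0556 after scaling. Map3k2, a kinase methylated by SMYD3, had 0.30 with an adjusted P of 0.184. Unc45b, a chaperone of myosin that works with HSP90, had 0.14 with an adjusted P of 0.543. The HSP90 genes Hsp90aa1 and Hsp90ab1 had -0.05 and 0.18 with adjusted P of 0.934 and 0.453, and after scaling -0.19 and 0.03. Ttn, the sarcomere protein titin, was listed at 0 in 8 libraries and between 640 and 871 FPKM in the other 4. It did not reach 0.1 FPKM in 6 libraries and was therefore not tested. Such a 0 can be a failed estimate. The list median was 0.13 as deposited and -0.01 after scaling.

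Of 9 muscle transcription factors listed as upstream of Smyd1, 8 were tested, and none passed the adjusted limma threshold. Whether they act on Smyd1 was not tested. With no adjustment 4 were higher and 0 lower as deposited (18.1% and 1.76% of all genes). After scaling 3 were higher and 0 lower (8.33% and 5.88%). Myog, the myogenic factor myogenin, had a log2 fold change of 1.36 with an adjusted P of 0.0657. Myf5, a myogenic factor expressed in satellite cells, had 1.08 with an adjusted P of 0.0654, and Mef2c had 0.48 with an adjusted P of 0.0830. The list median was 0.32 as deposited and 0.17 after scaling. Myf6, whose locus drives Cre in every mouse, was at 13.6 ± 5.20 FPKM in controls and 16.2 ± 3.40 in CKOs (SD, n = 6), with a log2 fold change of 0.31 and an adjusted P of 0.423.

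**Figure D5:**
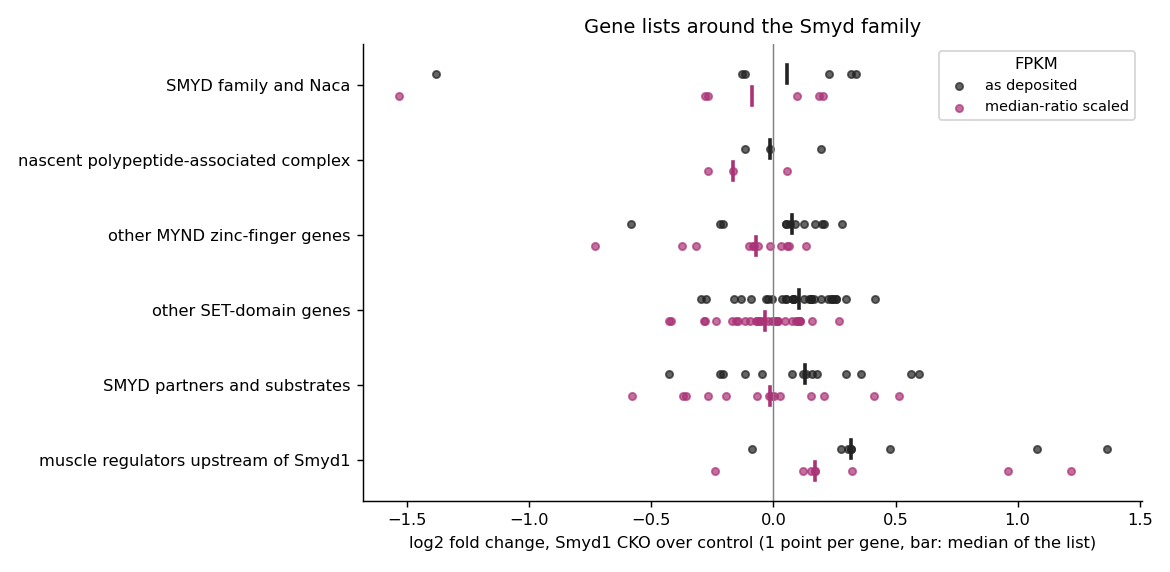
Log2 fold change of CKO over control (x axis) of every tested gene in 6 lists (y axis), as deposited in black and after median-ratio scaling in purple, with 1 point per gene and a bar at the list median. Smyd2 is the lowest point of all lists at -1.38 and -1.53, and Myog is the highest at 1.36 and 1.22.

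Markers of fiber types and other cells were read beside the fall of Smyd2. The muscle fiber markers other than Ttn summed to between 28800 and 47230 FPKM in controls and between 30180 and 38710 in CKOs. Of 13 tested, 1 was higher and 1 lower at an unadjusted limma P below 0.05, against 18.1% and 1.76% of all genes. After scaling 1 was higher and 6 lower, against 8.33% and 5.88% of all genes. Of 10 markers of slow-twitch fibers, 8 were higher with no adjustment, where 18.1% of all genes were, and none with it. After scaling 8 were higher and 1 lower with no adjustment, against 8.33% and 5.88% of all genes. Their sum ran from 45.1 to 95.8 FPKM in controls and from 66.8 to 395 in CKOs.

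The slow-twitch score of a mouse, which averages the centred log2 values of the markers, was high in CKOs 1, 3 and 6 (1.70, 1.08 and 2.61). It was within the control range of -1.37 to 0.01 in CKOs 2, 4 and 5 (-0.48, -0.12 and -0.73). Smyd2 was at 22.1, 25.4 and 19.9 FPKM in the first 3 of these mice and at 19.6, 22.7 and 35.1 in the others, with every control higher.

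Satellite cell markers summed to between 2.19 and 3.87 FPKM in controls and between 3.501 and 5.80 in CKOs, with 4 of 5 higher at an unadjusted limma P below 0.05 as deposited (18.1% of all genes), 3 of 5 after scaling (8.33%), and none with adjustment. Adipocyte markers summed to between 1 and 3.03 in controls and between 2.62 and 7.31 in CKOs. On both scales 3 of 4 were higher with no adjustment (18.1% and 8.33% of all genes). With adjustment 1 was higher (2.02% as deposited and 0.851% after scaling). The gene behind that 1 call was listed at 0 in 4 libraries, all of them controls. It reached the filter of 0.1 FPKM in 6 libraries only through the CKOs, so the filter favoured its call. Of the markers of fibroblasts and Schwann cells, 2 of 8 and 2 of 6 were higher with no adjustment as deposited, and 1 of 8 and 0 of 6 after scaling, against the same 18.1% and 8.33% of all genes. None of 9 endothelial, 8 macrophage, 4 red blood cell and 3 cardiac markers passed with or without it. The cardiac genes Nppb and Myl7 were listed at 0 in all 12 libraries. The part of these markers in the Smyd2 difference was not tested.

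Within groups, the genes that varied most like each member were found from Pearson's r over the 12 samples, on scaled log2 values after subtracting the group mean, among tested genes with a mean of at least 1 FPKM. For Smyd2 these were Sp4 (r = 0.976), Csnk1g1 (r = 0.929) and Pfkm (r = 0.916). For Smyd1 they were Arpc5l (r = 0.906), Mettl1 (r = 0.898) and Cct8 (r = 0.894), and for Naca they were Kmt2d (r = 0.974), Nfic (r = 0.962) and Map7d1 (r = 0.960). The 12 samples differ in depth, and these are the top 3 of 7968 or more r values for each member, so they are given as a description.

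For the low-level members the most alike genes were Snora74a (r = 0.896), Por (r = 0.896) and Snora81 (r = 0.891) with Smyd3, Dhx8 (r = 0.892), Etfa (r = 0.872) and Ifngr2 (r = 0.858) with Smyd4, and Herc3 (r = 0.918), Tom1l2 (r = 0.886) and Mapt (r = 0.834) with Smyd5. Among the members themselves, Smyd1 and Smyd2 had r = -0.004, so within a group a mouse with more Smyd1 did not also list more Smyd2. Smyd1 and Naca had r = -0.648. Smyd1, Smyd2 and Naca were not among the genes most like another member. Smyd3, Smyd4 and Smyd5 had means below the minimum of 1 FPKM, so they could not be listed for any member.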

How the data were processed

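Per the labels and the study's methods, the authors extracted RNA with Trizol, depleted ribosomal RNA from 100 ng with the ScriptSeq Complete Gold kit, aligned the reads with up to 2 mismatches and left out multi-mapped reads. The submitters' processing notes name TopHat2 2.0.10, Cufflinks 2.1.1 and mm9. The annotation is not given in the sources used here. The deposited values are FPKM, 1 per gene symbol and mouse, in 23950 entries per file, of which 27 were dates and were left out. Counts were not used here, so depth is known only in relative terms and no counting interval is given.

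Values were tested as log2(FPKM + 0.1) with limma 3.58.1 in R 4.3.3 (intensity trend, no block), which understates fold changes of low genes, and P-values were adjusted by Benjamini-Hochberg over 12695 genes. A pseudocount of 0.1 and a filter of 0.1 FPKM in 6 samples were used. Single genes were also tested by two-sided exact permutation of the means over all assignments of 6 and 6 mice. The code was tested on simulated data. Replicates are separate mice. Loci come from GENCODE M21 (GRCm38) by symbol, since the files carry no positions. All 6 members matched there, and 5 of 6 matched a RefSeq promoter.

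The members and gene lists were chosen with earlier results of these data known. Named genes are the members, any gene of a pathway list past the adjusted threshold, otherwise the 3 genes of that list with the smallest P, the 3 genes most like each member, and Gapdh and Myf6. Cell type marker lists are given by counts and sums. Hsp90aa1, Hsp90ab1, Unc45b, Map3k2, Hdac2, Hdac3 and Ttn are outside that rule, as are Krcc1, Acta1, Nppb and Myl7, and were chosen after their values were seen. The alternatives are another pseudocount (1), another filter (1 FPKM, or none at all), scaling by median ratio, quantiles or Gapdh, the replicate number as a block, that block with scaling, limma without the trend, sample weights, and each mouse left out in turn.

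Same-numbered controls and CKOs had correlations of their deviations between -0.0861 and 0.164, so the numbers were not taken to pair the mice.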

Additional observations from a re-analysis of the deposited data

Results flagged for a closer look

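In the 12 sets of values checked (6 genes in 2 groups), 3 single mice stood apart from the other 5 of their group by Dixon's test at the 95% level, which flags about 1 in 20 groups by chance. Smyd2 was 35.09 FPKM in CKO 5, against at most 25.4 in the other CKOs, and without this mouse the log2 fold change of Smyd2 was -1.49 in place of -1.38. Smyd3 was 1.033 FPKM in control 1, and without it the log2 fold change was 0.36 in place of 0.23, with a limma adjusted P of 0.143. Smyd5 was 0.3598 FPKM in CKO 4, and without it the log2 fold change was 0.53 in place of 0.34, with a limma adjusted P of 0.1504. None of the 3 changed a call.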

How the results depend on the processing

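Smyd2 was lower past the adjusted limma threshold under all 10 alternatives (log2 fold change -1.53 to -1.24, adjusted P 9.331e-06 to 0.00189) and with each mouse left out (-1.49 to -1.33, adjusted P 2.257e-05 to 0.00168). Smyd1 and Naca did not pass under any alternative. Gapdh scaling turned both to the other sign, to 0.01219 for Smyd1 and 0.02206 for Naca, with the median of all genes at 0.305. With a mouse left out, Smyd1 ran from -0.18 to -0.06 as deposited and from -0.32 to -0.23 after scaling (adjusted P 0.0516 to 0.2196). Naca ran from -0.34 without control 1 to -0.00187 without CKO 5. Smyd3 (0.14 to 0.36), Smyd4 (0.21 to 0.40) and Smyd5 (0.25 to 0.53) did not pass either with a mouse left out as deposited. After scaling their lowest values with a mouse left out were 0.02, 0.09 and 0.11. Under the 9 alternatives that kept them they ran from 0.0003 to 0.38, 0.09 to 0.44 and 0.12 to 0.47, and none passed. They were not tested under the 1 FPKM filter. The replicate block, which pairs mice that share only a number, left Smyd2 at -1.38 (adjusted P 0.000505) and Smyd1 at an adjusted P of 0.467, with 272 genes higher and 40 lower. Over all genes, 257 were higher and 34 lower. The higher count was 170 with no filter, 108 with median-ratio scaling, 101 with quantile normalization, 68 with Gapdh scaling, 103 with the replicate block and scaling, and 1400 with sample weights, and 84 (without CKO 1) to 1067 (without control 1) with a mouse left out. The lower count was 70, 68, 14, 70 and 115 under the last 5 of these settings and 18 to 69 with the same mice left out. Genes past the threshold among partners and substrates (1, Rb1) were 0 with no filter, median-ratio, quantile or Gapdh scaling, the replicate block with or without scaling, or no trend, 2 with sample weights, and 0 to 2 with a mouse left out. Among the factors listed as upstream of Smyd1, 0 became 3 with sample weights and 0 to 2 with a mouse left out. Among the other MYND genes 0 became 1 with the replicate block and scaling. The causes were not tested. Depth in reads is unknown, and the standard errors were 0.18, 0.19 and 0.23 for Smyd3, Smyd4 and Smyd5 and 0.25 for Naca (log2).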
